A study of Caenorhabditis elegans with 6 samples.

Results

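The 10 genes described here, *mom-1*, *mom-2*, *mom-5*, *apr-1*, *gsk-3*, *mom-4*, *lit-1*, *wrm-1*, *sys-1* and *pop-1*, encode the maternal Wnt, MAPK and beta-catenin machinery of the early *C. elegans* embryo. The rule that picked them used gene names and their place in the pathway, and no measured value, but earlier results of these data were known. All 10 were found among the 20240 gene models of the count tables, 1 row each. The 2-cell embryo consists of AB, the larger cell at the anterior, and P1, the smaller cell at the posterior. The study asked which transcripts differ in abundance between these sisters after the first division. Pools of hand-dissected AB cells and of P1 cells from embryos of gravid N2 adults, the wild-type strain, gave 3 libraries of each cell. No experimental treatment was compared, and eggshells were removed with chitinase and chymotrypsin before dissection. The RNA was amplified by *in vitro* transcription from an oligo-dT primer before sequencing (RNA-amp-seq). All 6 libraries share strain and dissection, and differ by cell and replicate. The study's methods also name differing sequencers and read lengths, and which library had which was not taken into account here.

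In the embryo that follows, P1 divides into EMS and P2, and a Wnt signal from P2 polarises the division of EMS so that its posterior daughter E founds the intestine. The ligand MOM-2 acts through the Frizzled receptor MOM-5, and the MAPK branch of MOM-4 and LIT-1 acts with the beta-catenin WRM-1 to export the TCF protein POP-1 from the E nucleus. A second beta-catenin, SYS-1, is a coactivator of the POP-1 that remains, and the same asymmetry machinery is reused in many later anterior-posterior divisions. The libraries measured the RNA that AB and P1 held before these signals act, and no protein.

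Library totals ran from 21249850 to 35591254 counted reads, of which the 10 genes together took 0.145% to 0.209%. Values below are normalized read counts, the raw counts divided by 1 size factor per library, so each is relative to the other RNA of its library. Amounts per cell were not measured. The study pooled matched AB and P1 cells in equal number, but relative counts do not show how much RNA each cell held. The cell labels were checked on transcripts that earlier work or the study placed in a cell. *mex-3*, which earlier work found enriched in AB, was lower in P1 in every pair (log2 fold change -0.98, edgeR adjusted p = 0.0675). *pgl-3*, a P granule gene, was higher in P1 (1.17, edgeR adjusted p = 0.00669). The study called *pgl-3* from these same libraries, and its imaging found no significant difference of *pgl-3* from a control transcript. Of the label genes with a row, 4 of 5 for AB and 2 of 4 for P1 were called. The study had called most of them from these libraries, so these counts are not an independent check. Those not called were *tes-1* (-1.72, edgeR adjusted p = 0.166), *bpl-1* (1.35, edgeR adjusted p = 0.159) and *nos-2* (0.40, edgeR adjusted p = 0.682). The study found *tes-1* and *bpl-1* asymmetric by single-molecule RNA imaging, so the test missed some known asymmetric transcripts. All 12 sperm genes checked had no read in any library. Summed normalized counts of intestine genes ran from 4.20 to 296 in AB and from 10.5 to 348 in P1, and none of the 9 was called. Those of body muscle genes ran from 8.15 to 106 in AB and from 2.32 to 212 in P1. Those of zygotic genes of later embryos ran from 113 to 251 in AB and from 12.2 to 129 in P1. Of the muscle genes 2, and of the zygotic genes 3, passed the rule for a present gene given below, and none was called. P1 replicate 1 stood apart, with correlations of 0.911 to 0.924 to the other 5 libraries, against 0.951 to 0.980 among those 5. Log2 fold changes of the 10 genes are therefore also given without it and without its pair, pair 1.

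None of the 10 transcripts passed the test between AB and P1, which was an edgeR quasi-likelihood test with an adjusted p under 0.10 for a present gene (a mean above 10 normalized read counts and above 0 in each cell). The same rule called 116 of 7945 present genes (1.46%), 0.856% with P1 higher and 0.604% with AB higher. The study's own DESeq test called more genes in each direction at an adjusted p under 0.10, so the edgeR test here called fewer. At an unadjusted p under 0.05, 3 of the 10 were past the line, *gsk-3* toward P1 and *mom-5* and *wrm-1* toward AB, against 10.4% of present genes (5.8% toward P1 and 4.59% toward AB). DESeq2 called 1, *gsk-3* (adjusted p = 0.0505), and called 2.14% of present genes, 1.2% with P1 higher. Limma on log2 normalized counts called 0. Of the 10, 5 had a positive and 5 a negative log2 fold change of P1 over AB, with a median of -0.17, and the median size of the change was 0.42 against 0.28 over all present genes.

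**Figure D1:**
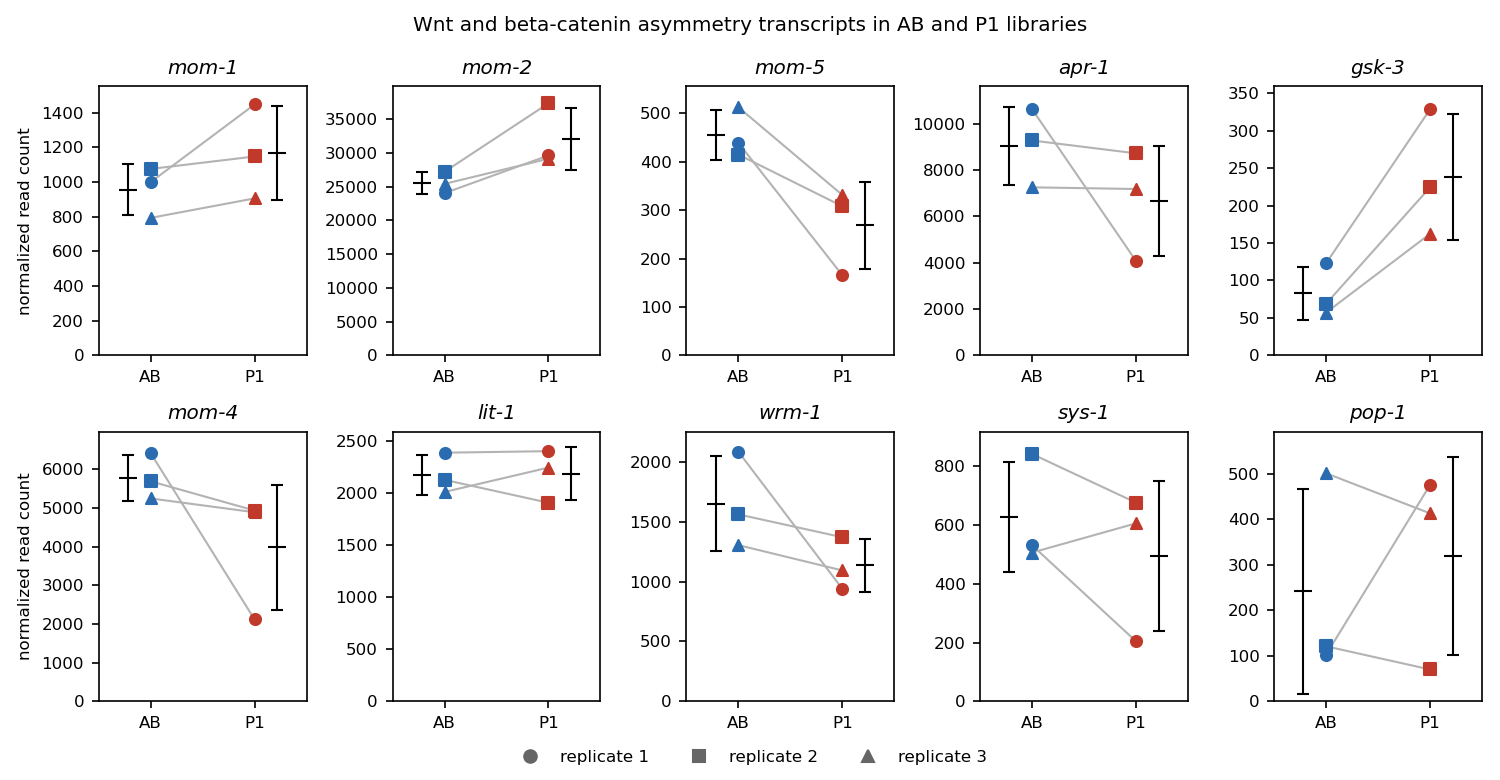
Normalized read counts (vertical axes, from 0) of the 10 genes in AB (blue) and P1 (red) libraries, with lines joining libraries of the same replicate number and black bars giving the mean ± SD of 3 libraries. *gsk-3* and *mom-2* are higher in every P1 library than in any AB library, *mom-5* and *mom-4* lower, and the other 6 genes overlap.

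The libraries of AB and P1 did not overlap for 4 of the 10 genes, against 15.9% of present genes. *gsk-3* and *mom-2* were higher in all P1 libraries than in any AB library (7.1% of present genes), and *mom-4* and *mom-5* were higher in all AB libraries (8.81%). Within pairs of the same replicate number, *mom-1*, *mom-2* and *gsk-3* were higher in P1 in 3 of 3 pairs, and *mom-4*, *mom-5*, *apr-1* and *wrm-1* were higher in AB in 3 of 3. Together these are 7 of 10 genes, against 40.5% of present genes that kept 1 direction in all pairs (19.1% higher in P1 and 21.4% higher in AB).

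The ligand gene *mom-2* and the secretion gene *mom-1* had small positive log2 fold changes. The 7 other Wnt secretion genes in the same fit had a median of 0.04, with 5 positive and 2 negative. *mom-2* encodes the Wnt ligand of P2 and lies on chromosome V (8355968 to 8358165, ce10). It was at 24028, 27193 and 25403 normalized read counts in AB replicates 1, 2 and 3, and at 29610, 37336 and 29129 in P1. Every P1 library exceeded every AB library, and P1 replicate 2 was the highest. The means were 25541 ± 1587 and 32025 ± 4606 (SD, n = 3 each), and the log2 fold change was 0.32 (SE 0.24, 95% interval -0.18 to 0.82, edgeR adjusted p = 0.713). It was 0.36 without P1 replicate 1 and 0.33 without pair 1. The interval allows a level in P1 from slightly below to clearly above that of AB. *mom-1* encodes the Porcupine-type acyltransferase that lipidates Wnt for secretion (chromosome X, 6293091 to 6298159). Its counts ran from 793 to 1076 in AB and from 906 to 1447 in P1, with P1 replicate 1 the highest of all and the other libraries intermingled. Its log2 fold change was 0.28 (SE 0.26, adjusted p = 0.746), and was 0.08 without P1 replicate 1 and 0.13 without pair 1.

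The receptor lay on the AB side. *mom-5* encodes the Frizzled receptor that EMS uses (chromosome I, 9965578 to 9969403). It was at 439, 415 and 513 normalized read counts in AB and at 166, 308 and 331 in P1. The lowest AB library exceeded the highest P1 library, and P1 replicate 1 was the lowest. Means were 455.6 ± 50.95 and 268 ± 89.7 (SD, n = 3 each), with a log2 fold change of -0.77 (SE 0.35, 95% interval -1.48 to -0.05, edgeR unadjusted p = 0.0362, adjusted p = 0.580). The log2 fold change was -0.54 both without P1 replicate 1 (edgeR adjusted p = 0.532) and without pair 1. Ligand and receptor thus had fold changes of opposite sign, and per kilobase, *mom-2* reads exceeded *mom-5* reads by 88.2, 106 and 79.9 times in AB and by 288, 195 and 141.7 times in P1. These ratios restate the values of both genes and were not tested.

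*gsk-3* had the largest change of the 10. It encodes glycogen synthase kinase 3, which in many animals marks beta-catenin for destruction and in the early worm embryo takes part in the positive arm of endoderm signalling (chromosome I, 12819206 to 12824795). It was at 123, 68.9 and 57.1 normalized read counts in AB and at 329, 224.4 and 162 in P1. Every P1 library exceeded every AB library, and in both cells replicate 1 was the highest and replicate 3 the lowest. Within pairs the log2 ratio was 1.41, 1.69 and 1.49, so the pairs differed by less than 0.3 although the levels differed more. The means were 83.0 ± 35.1 and 238 ± 84.0 (SD, n = 3 each), 2.86-fold higher in P1 (log2 fold change 1.52, SE 0.48, 95% interval 0.52 to 2.51, edgeR unadjusted p = 0.00411, adjusted p = 0.231). That change was larger than those of 96.6% of present genes.

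The call for *gsk-3* depended on the library set and the tool. It passed without pair 1 (log2 fold change 1.61, edgeR adjusted p = 0.0226) and without P1 replicate 3 (1.74, adjusted p = 0.0639), but not with any other library or pair left out (1.202 without P1 replicate 1), where the adjusted p ran from 0.144 to 0.813. Its raw counts were 119, 93 and 68 in AB and 242, 193 and 167 in P1. The exact Poisson 95% interval of the lowest count reached from 77.7% to 127% of its value, which covers counting error only. The 3 present genes whose profile over the 6 libraries lay nearest that of *gsk-3*, by distance between centred and scaled log2 values, were *Y65B4BL.3* (0.599), *C23G10.7* (0.608) and *C06G3.5* (0.646). Their log2 fold changes were smaller, from 0.35 to 0.44.

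*apr-1* encodes the APC-related protein of the pathway (chromosome I, 8050038 to 8055460). It was at 10616, 9276 and 7253 normalized read counts in AB and at 4064, 8720 and 7181 in P1. P1 replicate 1 was the lowest by a wide margin and the other libraries of the cells overlapped. The log2 fold change was -0.44 (SE 0.26, 95% interval -0.98 to 0.09, edgeR adjusted p = 0.686), and was -0.21 without P1 replicate 1 and -0.06 without pair 1. Per kilobase, *apr-1* exceeded *gsk-3* by 48.1, 75.0 and 70.8 times in AB and by 6.89, 21.6 and 24.6 times in P1, which was not tested.

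Of the MAPK arm, *mom-4* encodes a MAP kinase kinase kinase related to TAK1 (chromosome I, 9895684 to 9900808). Its normalized read counts were 6416, 5686 and 5243 in AB and 2114, 4930 and 4886 in P1. The AB libraries all lay above the P1 libraries, narrowly for replicates 2 and 3. The log2 fold change was -0.54 (SE 0.27, 95% interval -1.09 to 0.00, edgeR adjusted p = 0.640), and was -0.26 without P1 replicate 1 and -0.16 without pair 1. *lit-1* encodes the Nemo-like kinase that acts with WRM-1 on POP-1 (chromosome III, 13701892 to 13724300). Its counts ran from 2009 to 2386 in AB and from 1905 to 2401 in P1, ranges that almost coincided. Means were 2173 ± 193 and 2183 ± 253 (SD, n = 3 each), and the 95% interval of the log2 fold change, -0.46 to 0.46, sets the size of a difference that these libraries could have missed. The log2 fold change was -0.09 without P1 replicate 1 and -0.0011 without pair 1. Among the 10 genes, *lit-1* also had the smallest spread within a cell (0.15 on the log2 scale), smaller than that of all but 9.86% of present genes.

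Both beta-catenins had lower means in P1. *wrm-1* encodes the beta-catenin that pairs with LIT-1 (chromosome III, 5722804 to 5727067). It was at 2087, 1563 and 1306 normalized read counts in AB and at 941, 1372 and 1094 in P1. All 3 pairs were lower in P1, but P1 replicate 2 lay above AB replicate 3, so the cells overlapped. The log2 fold change was -0.54 (SE 0.25, 95% interval -1.06 to -0.02, edgeR unadjusted p = 0.0413, adjusted p = 0.601), and was -0.44 without P1 replicate 1 and -0.22 without pair 1. *sys-1* encodes the coactivator of POP-1 (chromosome I, 9980124 to 9984815). It was at 531, 842 and 507 in AB and at 204, 677 and 606 in P1. P1 replicate 1 was the lowest and the remaining 5 libraries intermingled. Its log2 fold change was -0.34 (SE 0.36, edgeR adjusted p = 0.752) and was 0.01 without P1 replicate 1 and -0.08 without pair 1.

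*pop-1*, which encodes the TCF transcription factor at the end of the pathway (chromosome I, 2823470 to 2830295), varied most. It was at 102, 121 and 501 normalized read counts in AB and at 475, 69.7 and 413 in P1. AB replicate 3, P1 replicate 1 and P1 replicate 3 were high and the other 3 libraries low, whichever the cell. The spread within a cell was 1.401 on the log2 scale, larger than in 91.7% of present genes, whose median was 0.37. The raw counts behind it were 99, 163 and 597 in AB and 350, 60 and 425 in P1. The log2 fold change of 0.39 (SE 0.54, 95% interval -0.72 to 1.501, edgeR adjusted p = 0.811) was -0.035 without P1 replicate 1 and -0.37 without pair 1. The per-kilobase ratio of *sys-1* to *pop-1* ran from 0.90 to 6.20 in AB and from 0.38 to 8.63 in P1.

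**Figure D2:**
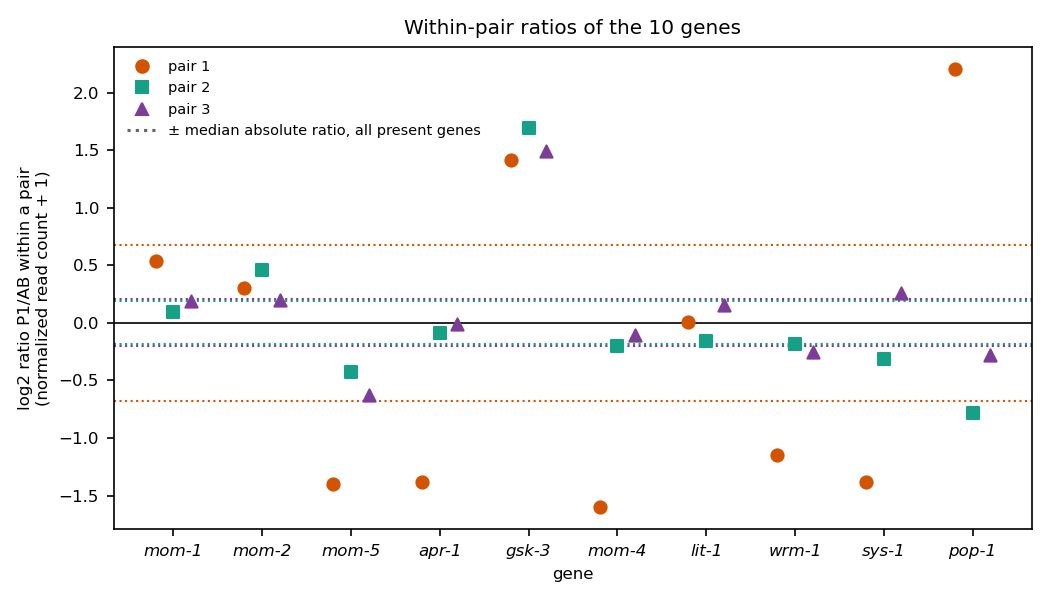
Log2 ratio of P1 over AB within each pair (vertical axis, normalized read count plus 1) for the 10 genes, with dotted lines at plus and minus the median absolute ratio of all present genes in the pair of that colour. *gsk-3* is high in all 3 pairs, while *mom-4*, *mom-5*, *apr-1*, *wrm-1* and *sys-1* lie below -1 in pair 1 and nearer 0 in the others.

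Much of the difference among the 10 genes came in pair 1. In that pair 5 genes, *mom-4*, *apr-1*, *wrm-1*, *sys-1* and *mom-5*, were 2.22- to 3.03-fold higher in AB, and *pop-1* was 4.61-fold higher in P1. A log2 ratio below -1 occurred in 18.6% of present genes in pair 1, 4.78% in pair 2 and 3.06% in pair 3. The median absolute log2 ratio of the 10 genes was 1.38, 0.26 and 0.23 in pairs 1, 2 and 3, against 0.68, 0.19 and 0.21 over all present genes. Both sets were therefore widest in pair 1, which holds P1 replicate 1. The part of that library in these values was not tested beyond the values without it.

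**Figure D3:**
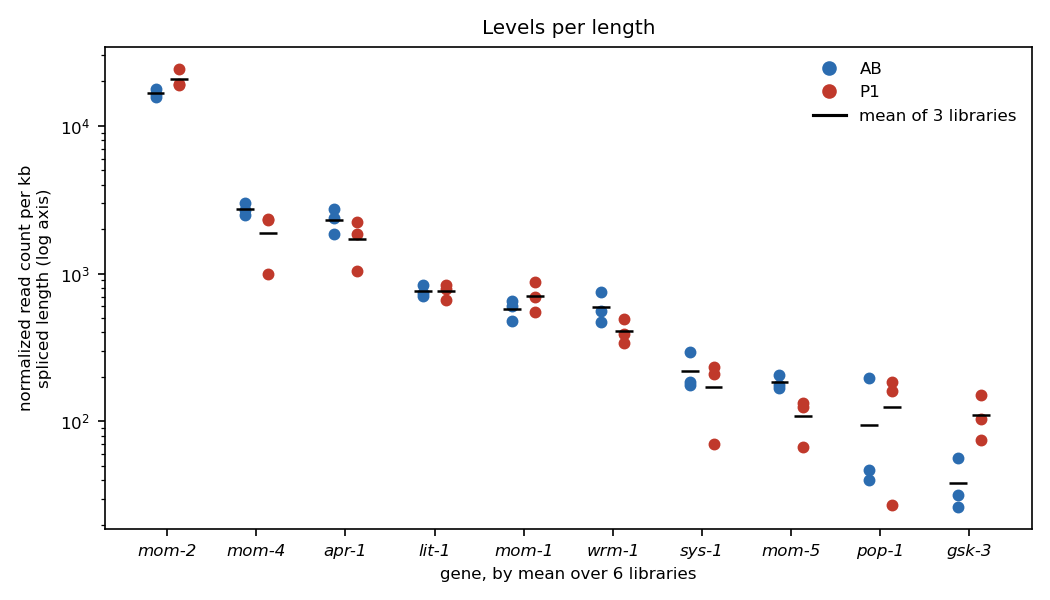
Normalized read count per kilobase of spliced length (vertical log axis) for the 10 genes in order of their mean, with each of 3 AB (blue) and 3 P1 (red) libraries as a point and black bars for the mean of 3 libraries. *mom-2* stands above the rest, and *pop-1* and *gsk-3* are lowest.

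The 10 transcripts spanned a wide range of levels. Per kilobase of spliced length, *mom-2* averaged 18727 normalized read counts over the 6 libraries, higher than 98.5% of present genes. *mom-4* (2303) and *apr-1* (2013) followed, then *lit-1* (759), *mom-1* (641) and *wrm-1* (500). *sys-1* (195), *mom-5* (146), *pop-1* (109) and *gsk-3* (74.0) were lowest, and *gsk-3* was above 22.8% of present genes. The ligand was thus the most abundant RNA of the group and its receptor among the least. Neighbours in this order had overlapping library ranges except at 3 steps: *mom-2* over *mom-4* (8.13 times), *apr-1* over *lit-1* (2.65 times) and *wrm-1* over *sys-1* (2.56 times). The RNA was primed from its 3′ end, and the order was therefore also taken without the length. It then changed for 4 genes, *apr-1* and *mom-4* and *wrm-1* and *mom-1* exchanging places.

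Exons of 4 of the 10 genes overlap another annotated gene, and whether the counting used strand is not given in the sources used here. *apr-1* shares 17 bases with *K04G2.9*, *mom-4* 75 with *col-64* and *mom-5* 66 with *tsp-7*. These neighbours had 8 to 57, 5 to 64 and 0 to 7 raw counts per library, far below the counts of the genes they overlap. How many reads fell on the shared bases was not counted, and these values do not show it. *pop-1* shares 100 bases with the noncoding *W03D8.13*, which was not analysed here.

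**Figure D4:**
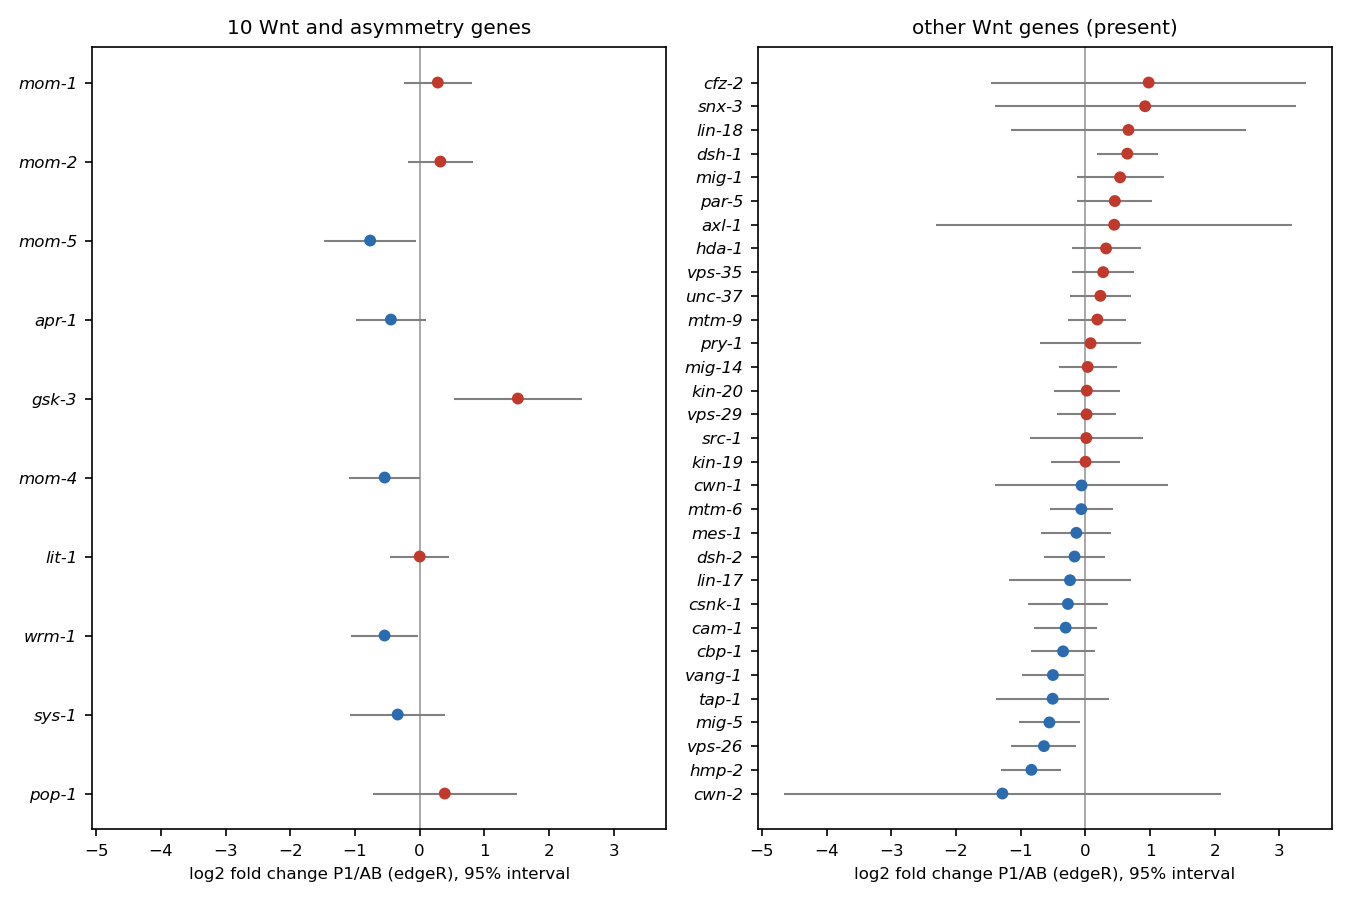
edgeR log2 fold change of P1 over AB (horizontal axis) with its 95% interval (grey line) for the 10 genes (left) and for 31 other present Wnt pathway genes ordered by value (right), red above 0 and blue below. *gsk-3* is farthest to the right on the left side, and on the right the interval lies wholly above 0 for *dsh-1* and wholly below 0 for *hmp-2*, *vps-26*, *mig-5* and *vang-1*.

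A list of 41 other pathway genes was read from the same fit, of which 40 had a row, 37 had reads and 31 were present. None of the 31 was called by edgeR, against 1.46% of present genes, and 5 had an unadjusted p under 0.05, against 10.4%. The libraries of AB and P1 did not overlap for 2 genes higher in P1 and 4 higher in AB, against 7.1% and 8.81% of present genes. Their log2 fold changes were positive for 17 and negative for 14, with a median of 0.01. The nearest to a call was *hmp-2*, a beta-catenin of cell adhesion, which the study itself names among its AB-enriched transcripts. It was at 14640 ± 661 in AB and 8242 ± 290 in P1 (SD, n = 3 each), with no overlap, and its log2 fold change was -0.83 (SE 0.23, edgeR adjusted p = 0.109). A replicate block brought the adjusted p to 0.0978, which passed. DESeq2 gave 0.00061.

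The Dishevelled genes, which relay the signal inside the cell, are *dsh-1*, *dsh-2* and *mig-5*. *dsh-1* was at 1448 ± 87.1 in AB and 2278 ± 215 in P1 (log2 fold change 0.65, edgeR adjusted p = 0.332, DESeq2 adjusted p = 0.0749). *mig-5* was at 11369 ± 220 in AB and 7757 ± 1086 in P1 (-0.56, edgeR adjusted p = 0.491). For these the libraries of the cells did not overlap. *dsh-2* was at 8575 ± 319 and 7660 ± 1112 with overlapping libraries (-0.17, edgeR adjusted p = 0.801). The retromer gene *vps-26*, which serves Wnt recycling, and the planar polarity gene *vang-1* had log2 fold changes of -0.64 and -0.50 (edgeR adjusted p = 0.419 and 0.601), which were -0.43 and -0.40 without P1 replicate 1.

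Other genes with the highest normalized read count of their role were *vps-35* of Wnt secretion (4641 ± 1104 and 5624 ± 660 normalized read counts in AB and P1), the ligand *cwn-1* (77.3 ± 31.9 and 74.4 ± 33.8) and the receptor *cam-1* (8621 ± 1904 and 6994 ± 974.8). Per kilobase, *cwn-1* averaged 49.8 over the 6 libraries, against 18727 for *mom-2*. The 14-3-3 gene *par-5*, which acts in POP-1 export, was at 57503 ± 6398 and 79365 ± 32289. Its P1 libraries were at 116344, 56754 and 64997, replicate 1 being the highest. The values of the POP-1 cofactor *hda-1* were 8525 ± 2756 and 10680 ± 3112. *mes-1*, of the Src arm that acts in parallel on EMS, was at 1926 ± 818 and 1749 ± 261. Of 6 zygotic genes of the later EMS lineage, *med-1*, *med-2* and *tbx-35* had no read in any library, where a count of 0 allows up to 0.0843 to 0.141 CPM (counts scaled to a common library total). The other 3, *end-1*, *end-3* and *ceh-51*, had reads, with raw counts of 0 to 11, 0 to 11 and 0 to 10 per library, below the rule for a present gene. The canonical beta-catenin *bar-1* had 0 raw counts in all AB libraries and 25, 0 and 4 in P1 replicates 1, 2 and 3, also below that rule.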

How the data were processed

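Raw read counts and normalized read counts of 3 AB and 3 P1 libraries were used. The authors deposited raw counts per gene model which come from reads aligned to ce10 with TopHat 1.4.0 and counted on RefSeq models (WS220) by HTSeq 0.5.3. A second deposited table holds normalized counts, a signal made by dividing each library by its DESeq 1.2.1 size factor. Cell and replicate come from the labels. Start positions count from 1.

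The quasi-likelihood test of edgeR 4.0.16 (R 4.3.3) was run on raw counts with TMM scaling and no block. It covered the 13717 models that had a read, and p-values were adjusted over these by the method of Benjamini and Hochberg. SE was the size of the log2 fold change divided by the square root of F. The test was tested on simulated data. Ratios within pairs used a pseudocount of 1. Spliced lengths are of the longest WBcel235 transcript, matched by WormBase identifier. Nothing in the labels says that replicates came from separate cultures, so p-values measure the spread between these samples.

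The study's methods describe pools of matched sister cells per replicate. Deviations of same-numbered libraries correlated at 0.175, 0.220 and 0.173, and those of different-numbered libraries at -0.219 to 0.080. Deviations cancel out within a cell, so positive values for the same numbers lower the others by construction. The numbers were taken to pair the samples, although neither this contrast nor values this low show that sister cells were paired. Alternatives were DESeq2 1.42.0, limma 3.58.1, DESeq2 size factors, other gene filters, a threshold of 0.05, the replicate block, other length definitions, and omission of each pair or library.

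Named genes were the 10 genes, and of a list of other pathway genes those called, those with an unadjusted p under 0.05, those without reads and the highest of each role, with label genes and the nearest profiles to *gsk-3*. *bar-1*, *dsh-2*, *end-1*, *end-3* and *ceh-51* were named after their values were seen. The genes and lists were chosen with earlier results of these data known.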

Additional observations from a re-analysis of the deposited data

How the results depend on the processing

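The count of calls over all genes, 116, was 50 with limma, 52 with only present genes in the fit and 53 with filterByExpr, and ran from 71 to 534 with a pair or library left out. It was 534 without P1 replicate 1, 532 without pair 1, 499 without P1 replicate 2, 284 without P1 replicate 3, 191 without AB replicate 3, 77 without AB replicate 1 and 71 without pair 2. Calls among the 10 genes, 0, became 1 (*gsk-3*) with DESeq2, and ran from 0 to 1 with a pair or library left out. Calls among the other pathway genes, 0, became 2 with DESeq2 (*dsh-1* and *hmp-2*) and 1 with the replicate block (*hmp-2*), and ran from 0 to 4 with a pair or library left out, 4 without pair 1, 3 without P1 replicate 1 and 2 without P1 replicate 2. The replicate block gave 91 calls in all and changed no call among the 10 genes (*gsk-3* log2 fold change 1.54, edgeR adjusted p = 0.139). Without a length correction 6 of 10 genes kept their rank, with coding length 8 and with CPM 10. Direction changed for *lit-1*, whose log2 fold change of 0.00 was -0.0026 with the replicate block and ran from -0.091 to 0.068 with a pair or library left out, for *sys-1* (-0.66 to 0.010) and for *pop-1* (-0.37 to 1.51). The cause was not tested. With 3 libraries a cell, the 95% interval of the log2 fold change ran from -0.46 to 0.46 for *lit-1*, the narrowest of the 10 genes, and from -0.72 to 1.501 for *pop-1*, the widest.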
